A study of Mus musculus with 36 samples.

Results

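The genes described here encode thioredoxin, its reductase, its inhibitor, the peroxiredoxins and sulfiredoxin. They were chosen by symbol, and a gene counted as measured where at least 1 probe set of the array pair carried its symbol and no other. Of the 10 symbols, 7 were measured this way, by 18 of the 35041 probe sets with 1 symbol: Srxn1 by 4 probe sets, Prdx4 by 4, Txnrd1 by 3, Txn1, Txnip and Prdx2 by 2 each, and Prdx3 by 1. The 5 probe sets of Prdx1 pair it with another symbol, and Prdx1, Prdx5 and Prdx6 were not analysed here. The 7 genes are among 18193 genes for which 1 representative probe set was tested. The family was proposed with its flow values in these data known, so its flow values are given as a description with no p-value, and where its members past the threshold for flow are counted, the counts are no evidence about the family. Differences between tissues, and between the responses of tissues, were tested.

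The cells were primary fibroblasts isolated from corneas, skin and tendons of CD1 mouse fetuses taken 19 days post conception, and the labels give no genetic change. After 5 population doublings they were seeded on glass coated with gelatin and kept for 14 h either under standing medium (static, the control groups) or in a parallel-plate chamber under laminar flow at a wall shear stress of 0.1 dyn/cm2 (flow, the stimulated groups). All 6 groups were in low-serum DMEM with antibiotics during that time. Each group has 3 libraries, and a library was hybridised to both Affymetrix arrays of the MOE430 set (chip A and chip B), so that 18 libraries make 36 arrays. The labels name a single pregnant mouse as the source of embryos and call the replicates biological, but they do not say whether replicates came from separate fetuses, and the p-values then cover only the spread among these cultures, which may be partly technical. These are dissociated cells on coated glass, and they had not been in their tissues for several cell divisions.

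Thioredoxin (Txn1) is a small cytosolic protein that reduces disulfide bonds in other proteins, and thioredoxin reductase (Txnrd1), a selenoprotein, reduces it again with electrons from NADPH. Peroxiredoxins use a reactive cysteine to break down hydrogen peroxide and take their electrons mostly from thioredoxin. When peroxide is in excess that cysteine can be over-oxidised, and sulfiredoxin (Srxn1) restores it. Txnip binds reduced thioredoxin and inhibits it, and it also limits glucose uptake. Srxn1 and Txnrd1 are known targets of the antioxidant transcription factor encoded by Nfe2l2.

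The libraries went with their labels, with 1 label in conflict. The description label of the tendon flow arrays says cornea, while their title, source name and scan record say tendon. On a scale from 0 (mean of static cornea) to 1 (mean of static tendon) over 219 genes, tendon flow 1, 2 and 3 took the values 1.00, 0.88 and 0.98, against 0.06, 0.11 and 0.02 for cornea flow, and they were treated as tendon. Of the 9 fibroblast markers listed, 8 were measured, and their mean log2 level was 11.59 to 12.25 over the libraries. The lists for keratinocytes, endothelium, leukocytes, skeletal muscle, neural cells and melanocytes, and red cells averaged 5.61 to 7.23. Single markers overlapped. Mean levels ran from 8.01 (Pdgfra) to 13.77 (Col1a2) for fibroblast markers and from 3.72 (Myf5) to 9.02 (Csf1r) for the others. Kdr of the endothelium list at 8.67 and Cd14 of the leukocyte list at 8.44 also lay above Pdgfra. The hybridisation dates in the scan records split the libraries into batches. Replicate 1 of both tendon groups, of both skin groups and of cornea flow, 5 libraries, form hybridisation batch 1. The other 13 form hybridisation batch 2, and only their records give a culture day. In batch 2 a static and a flow library of the same tissue and culture day were paired. In batch 1, with no recorded day, static 1 and flow 1 of skin and of tendon were paired by batch alone. These 8 pairs are called culture-day pairs, and fits with culture day as a block treat them all as sharing a day. Cornea static 2 and cornea flow 1 have no partner, and with culture day as a fixed block they add nothing to the flow values. The scan record of skin static 2 says that its material was perhaps more concentrated, and the library was kept. Tendon static 3 stood apart from the other libraries over all genes tested. On the second principal component, which holds 18% of the variance, it lay at -43, and the next lowest library was tendon flow 3 at -15.9. It was kept, and values of the family that rest on it are also given without it, a choice made after the values were seen. As a sign of RNA quality, the 3′ minus 5′ difference of the beta-actin control probe sets on chip A averaged 0.92 (log2) over the 9 static libraries and 1.14 over the 9 flow libraries, and that of the Gapdh control 1.93 and 2.03.

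RefSeq promoter windows (build GRCm38.p6, 250 bases before to 50 bases after a transcript start) were found for all 7 measured genes, 9 windows in all. They were searched on both strands for TGACNNNGC, the core of the antioxidant response element, for TGANTCA, the AP-1 motif, and for the E-box CACGTG. Of the 32851 windows in the table, 12.4% hold TGACNNNGC, 7.81% hold TGANTCA and 7.15% hold CACGTG. Matches were found in 3 of the 9 windows, those of Srxn1, Prdx4 and 1 of the 3 of Txnrd1, and the windows of Txn1, Txnip, Prdx2 and Prdx3 hold none of these letters. The 250 bases before these starts are shown because Srxn1 and Txnrd1 had the largest flow values of the family and Prdx4 differed between tissues. Each is written 5′ to 3′ on the gene's own strand, with the matches in capitals.
Srxn1 (chr2:152105274-152105523, plus strand): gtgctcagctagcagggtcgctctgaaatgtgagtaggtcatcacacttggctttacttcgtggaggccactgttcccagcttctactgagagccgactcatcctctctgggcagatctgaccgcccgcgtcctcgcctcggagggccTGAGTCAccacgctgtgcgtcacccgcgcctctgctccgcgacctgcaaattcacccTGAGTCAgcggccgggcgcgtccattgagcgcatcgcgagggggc
Txnrd1 (chr10:82858956-82859205, plus strand): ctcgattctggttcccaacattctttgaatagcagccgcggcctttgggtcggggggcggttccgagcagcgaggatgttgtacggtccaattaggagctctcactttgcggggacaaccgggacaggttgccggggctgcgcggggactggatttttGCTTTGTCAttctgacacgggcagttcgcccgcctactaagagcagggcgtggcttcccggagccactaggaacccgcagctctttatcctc
Prdx4 (chrX:155338461-155338710, minus strand): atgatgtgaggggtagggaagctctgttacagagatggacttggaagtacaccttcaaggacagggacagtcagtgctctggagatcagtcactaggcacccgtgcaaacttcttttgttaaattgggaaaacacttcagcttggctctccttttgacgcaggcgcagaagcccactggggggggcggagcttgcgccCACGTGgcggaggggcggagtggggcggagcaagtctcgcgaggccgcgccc
In the Srxn1 window TGAGTCA, a form of the AP-1 motif, stands at -102 to -96 and again at -45 to -39, counted from the transcript start. Windows with at least 2 AP-1 matches make 0.46% of the table. Past the start, at 29 to 37, the Srxn1 window also holds the antioxidant response core on the opposite strand. In the Txnrd1 window that core lies on the opposite strand at -92 to -84, and in the Prdx4 window the E-box lies at -52 to -47. No match overlaps another. Other forms of these elements were not searched for, so a window without a match may still hold one. A match is a run of letters and was not tested as a binding site.

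Srxn1, sulfiredoxin, was higher under flow than in static culture in every tissue. In static cornea fibroblasts its log2 level (representative probe set 1426875_s_at) was 8.41, 8.61 and 8.57, and under flow it was 10.58, 10.97 and 9.61. In skin it was 9.10, 8.88 and 9.17 static and 10.98, 10.18 and 11.31 under flow. In tendon it was 8.76, 8.59 and 8.48 static and 11.19, 10.57 and 10.42 under flow. The lowest flow library, cornea flow 3 at 9.61, still lay above the highest static library, skin static 3 at 9.17. Such a separation of all 9 flow libraries from all 9 static ones was met by 0.192% of the 18193 genes, and Srxn1 is the only 1 of the 7 measured family members among them. This contrast chose the family, so nothing is read from that share.

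The flow minus static difference of Srxn1 was 1.86 ± 0.30 in cornea, 1.78 ± 0.30 in skin and 2.12 ± 0.30 in tendon (log2 ± SE of the limma fit, 3 libraries per group), which are 3.62-fold, 3.43-fold and 4.34-fold. The flow libraries spread more than the static ones, with SDs of 0.70, 0.58 and 0.41 against 0.10, 0.15 and 0.14 in cornea, skin and tendon. Over the 8 culture-day pairs the difference ran from 1.03 to 2.56, with a median of 1.96, and was positive in 8 of 8. The smallest was that of cornea static 3 and cornea flow 3, and the largest that of cornea static 1 and cornea flow 2. Within hybridisation batch 2 alone, Srxn1 was higher under flow by 1.76 in cornea, 1.72 in skin and 1.96 in tendon. Within hybridisation batch 1, which holds 1 library of a state, it was higher by 1.89 in skin and 2.43 in tendon.

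**Figure D1:**
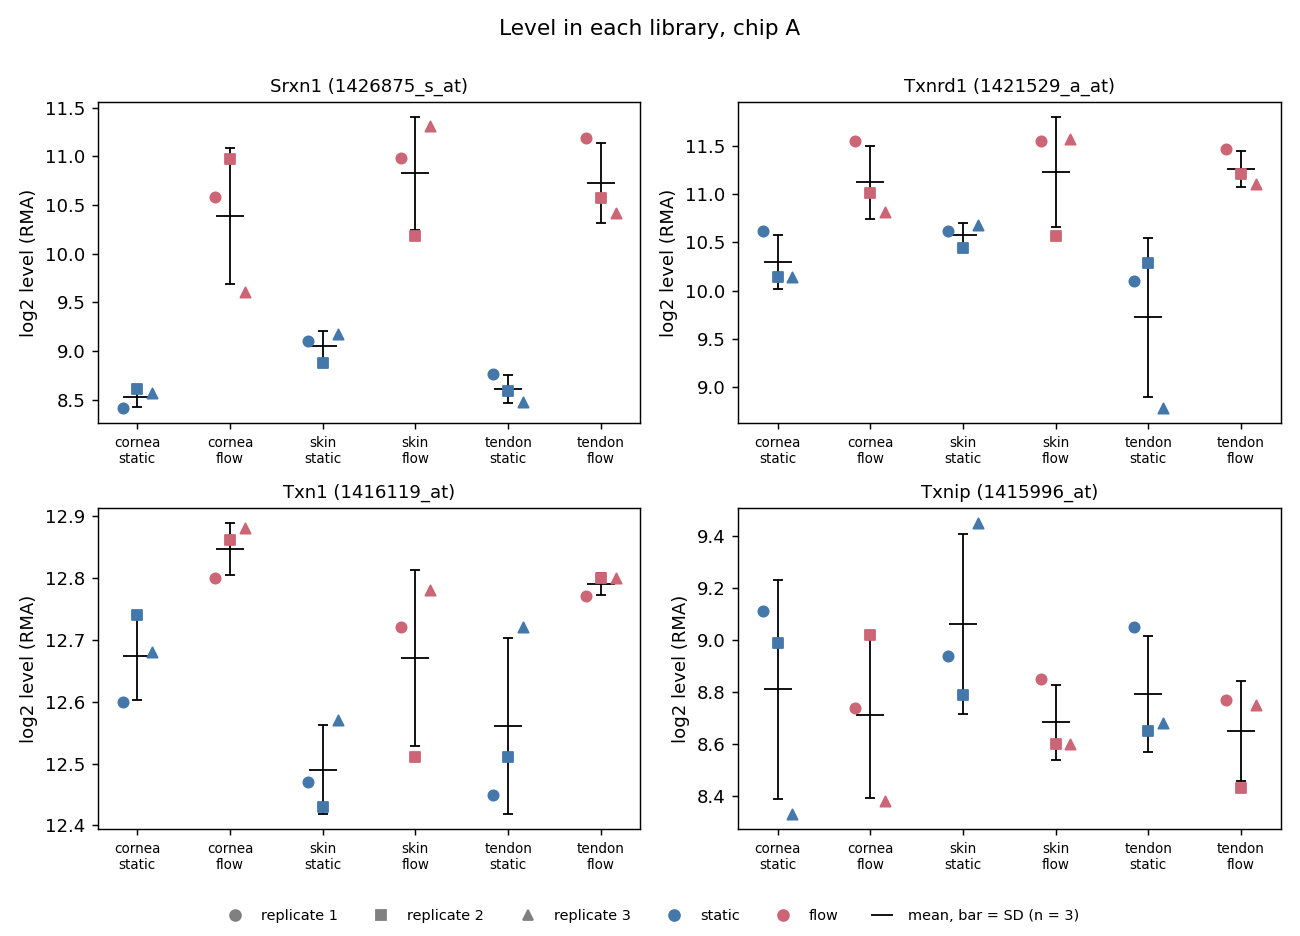
Log2 level (RMA, chip A) of Srxn1, Txnrd1, Txn1 and Txnip in each of the 18 libraries, by tissue and state. Points are libraries with a marker shape per replicate number, horizontal bars are group means and error bars SDs (n = 3). The Srxn1 flow libraries (9.61 to 11.31) all lie above its static libraries (8.41 to 9.17), and tendon static 3 is the lowest Txnrd1 value at 8.78.

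The other probe sets of Srxn1 split into those that followed the representative and one that did not. Probe set 1451680_at measured 7.59 to 8.06 in the static and 8.20 to 9.66 in the flow libraries, again without overlap, and its average flow difference was 1.08 ± 0.16. Probe set 1425351_at, at 5.67 to 5.99 static and 5.92 to 6.81 under flow, gave 0.59 ± 0.11, and its ranges overlapped. Both were higher under flow in 8 of 8 pairs. Probe set 1419942_at lay at 7.88 to 8.36 static and 7.83 to 8.24 under flow, and it was higher in 3 and lower in 5 of the 8 pairs. The size of the Srxn1 difference thus depended on the probe set, from -0.04 to 1.92. The largest value was that of the representative, whose name ends in _s_at, a suffix that was not counted as a mark of cross-hybridisation.

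Txnrd1, the cytosolic thioredoxin reductase, was higher under flow by 1.01 ± 0.19 on average over the tissues, with tissue values that were less even than those of Srxn1. Its level (1421529_a_at) was 10.62, 10.14 and 10.14 in static cornea and 11.55, 11.01 and 10.82 under flow. In skin it was 10.62, 10.44 and 10.68 static and 11.55, 10.57 and 11.57 under flow. In tendon it was 10.10, 10.29 and 8.78 static and 11.47, 11.21 and 11.11 under flow. The static and flow libraries of cornea and of tendon did not overlap, while skin flow 2 at 10.57 lay among the static skin libraries. The differences were 0.82 ± 0.33 in cornea, 0.65 ± 0.33 in skin and 1.54 ± 0.33 in tendon. Tendon static 3, the library that stood apart over all genes, was also the lowest here, and without it the tendon value was 1.07 and the average 0.85. All 8 culture-day pairs were higher under flow, from 0.13 (skin 2) to 2.34 (tendon 3).

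The other Txnrd1 probe sets did not share this pattern. Probe set 1424486_a_at gave an average flow difference of 0.21 ± 0.30, and 1424487_x_at, whose name marks possible cross-hybridisation, gave -0.04 ± 0.15. In 1424486_a_at the 6 highest libraries were cornea flow 2 (9.45), skin flow 3 (9.42), skin flow 2 (9.27), cornea static 1 (9.25), skin static 2 (9.01) and tendon static 2 (8.69). Cornea static 1 and cornea flow 2 share a culture day, as do skin static 2 and skin flow 2, so in both pairs the static and the flow library were high together. The other 12 libraries lay between 7.33 and 8.28. The Txnrd1 values above therefore rest on 1 of its 3 probe sets.

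Txn1, thioredoxin itself, differed little. Its level (1416119_at) was 12.60, 12.74 and 12.68 in static cornea, 12.80, 12.86 and 12.88 in cornea under flow, 12.47, 12.43 and 12.57 in static skin, 12.72, 12.51 and 12.78 in skin under flow, 12.45, 12.51 and 12.72 in static tendon, and 12.77, 12.80 and 12.80 in tendon under flow. Flow libraries lay above static ones in cornea and in tendon, and in skin the states overlapped. The average difference was 0.19 ± 0.06 (1.14-fold), and 8 of 8 pairs were higher under flow, by 0.08 to 0.32. The other Txn1 probe set, 1456734_at, gave 0.00 ± 0.06 and was higher under flow in 4 pairs and lower in 4.

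Txnip, the thioredoxin inhibitor, had overlapping states in all 3 tissues. Its level (1415996_at) was 9.11, 8.99 and 8.33 in static cornea and 8.74, 9.02 and 8.38 under flow. In skin it was 8.94, 8.79 and 9.45 static and 8.85, 8.60 and 8.60 under flow, and in tendon 9.05, 8.65 and 8.68 static and 8.77, 8.43 and 8.75 under flow. The differences were -0.10 ± 0.22, -0.38 ± 0.22 and -0.14 ± 0.22 in cornea, skin and tendon. Of the 8 pairs 6 were lower under flow, with skin 3 the farthest at -0.86. The other Txnip probe set, 1415997_at, gave an average of -0.11 ± 0.06 against -0.20 ± 0.13.

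**Figure D2:**
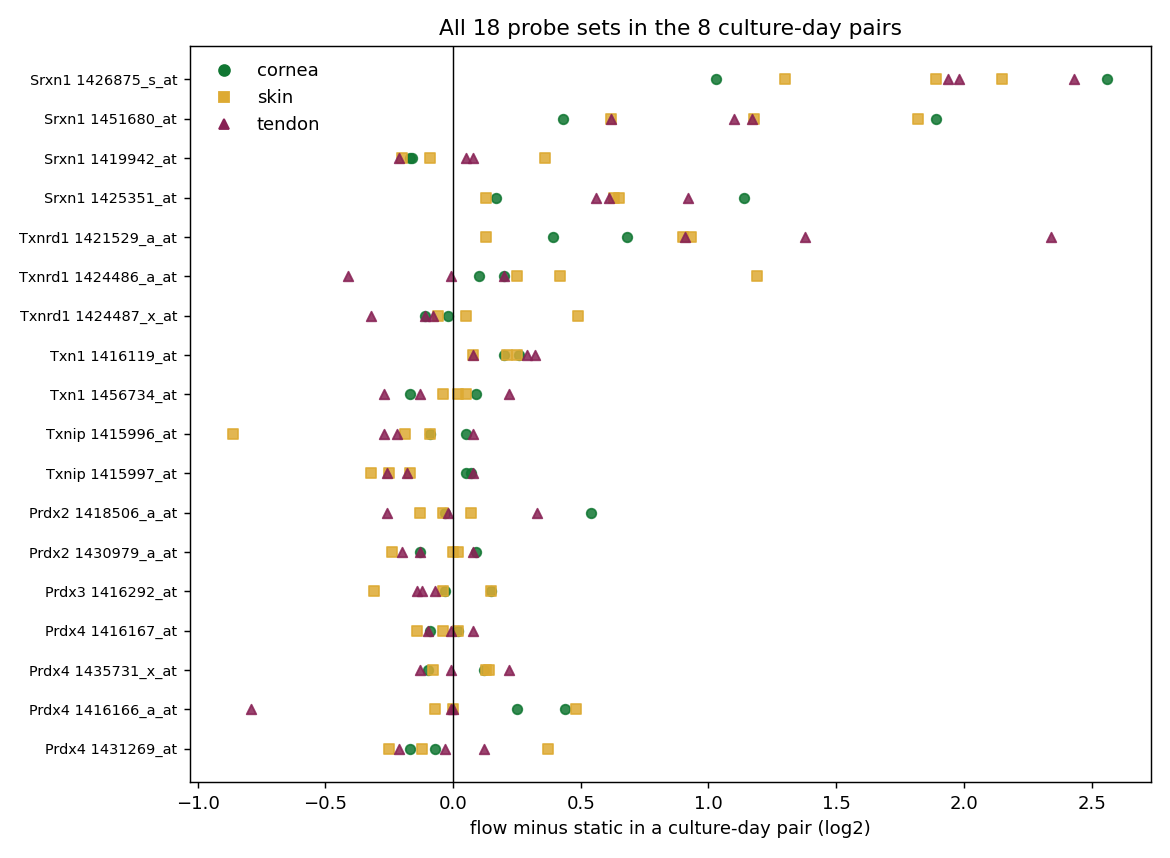
Flow minus static (log2) in each of the 8 culture-day pairs (cornea 2, skin 3, tendon 3) for all 18 probe sets of the family, coloured by tissue. The replicate 1 pairs of skin and of tendon have no recorded culture day and were paired by hybridisation batch. All pairs lie right of 0 for Srxn1 1426875_s_at, 1451680_at and 1425351_at, Txnrd1 1421529_a_at and Txn1 1416119_at, and on both sides of 0 for the others.

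By the threshold used for the tests, an adjusted p below 0.05, 2 of the 7 genes (Srxn1 and Txnrd1) passed for the flow average beside 0.896% of all genes, 1 of 7 (Srxn1) passed in tendon beside 0.0605%, and 0 of 7 passed in cornea and in skin beside 0.022% and 0.0275%. At an unadjusted p below 0.05 there were 2 in cornea, 1 in skin and 3 in tendon, beside 5.39%, 3.01% and 4.36% of all genes. For the flow average there were 3, beside 11.2%. With culture day as a block, 3 of 7 passed for the average beside 7% of all genes, Txn1 being the third, and 1 passed in cornea, 1 in skin and 2 in tendon beside 0.33%, 0.363% and 1.21%. The static and flow libraries of a tissue did not overlap for 3 of 7 in cornea, 1 of 7 in skin and 3 of 7 in tendon, beside 10.4%, 7.91% and 8.04% of all genes. These counts describe the choice of the family and support nothing. The 3′ minus 5′ difference of the control probe sets, given above, was higher on average under flow, but the ranges of the 2 states overlapped. In cornea that of Gapdh on chip A was not higher under flow, at 1.87 static and 1.80 under flow. The part of this difference in the flow values was not tested.

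Whether the tissues responded differently to flow was tested by the interaction of tissue and flow. It called 0 of the 18193 genes in limma, with 142 (0.781%) at an unadjusted p below 0.05, and none of the 7 family members was among the called. The unadjusted p of the family members ran from 0.17 (Txnrd1) to 0.93 (Prdx4). For Srxn1 the response in tendon minus that in skin was 0.34 (95% interval -0.57 to 1.26), and in cornea minus skin 0.08 (-0.83 to 0.99). For Txnrd1 the response in tendon minus that in skin was 0.89 (-0.11 to 1.89). These intervals are wide, and they do not show that the tissues responded alike.

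The peroxiredoxins, the substrates of sulfiredoxin, showed no common shift with flow. Prdx2, a cytosolic peroxiredoxin, measured 11.56, 11.70 and 11.65 in static cornea and 12.03, 12.10 and 11.61 under flow. It was 11.90, 11.99 and 11.64 in static skin, 11.97, 11.95 and 11.51 in skin under flow, 12.12, 12.17 and 11.65 in static tendon, and 12.10, 11.91 and 11.99 in tendon under flow. Its static and flow libraries overlapped in every tissue, and the average difference was 0.09 ± 0.10. The other Prdx2 probe set gave -0.05 ± 0.11.

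Prdx3, the mitochondrial peroxiredoxin, had overlapping states in every tissue and was higher in the libraries of hybridisation batch 1. It measured 9.59, 9.80 and 9.54 in static cornea, 10.30, 9.55 and 9.69 in cornea under flow, 9.88, 9.09 and 9.55 in static skin, 10.03, 9.06 and 9.23 in skin under flow, 10.04, 9.74 and 9.23 in static tendon, and 9.90, 9.62 and 9.16 in tendon under flow. The 5 libraries of hybridisation batch 1 lay at 9.88 to 10.30 and the 13 of hybridisation batch 2 at 9.06 to 9.80, without overlap. This look at the batches was chosen after the values were seen, and 0.973% of all genes have no overlap between the batches. Within hybridisation batch 2 the flow differences of Prdx3 were -0.02 in cornea, -0.17 in skin and -0.09 in tendon. Over all libraries the average was 0.01 ± 0.16. Without tendon static 3 the average was -0.06, and the tendon value went from -0.11 to -0.33.

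**Figure D3:**
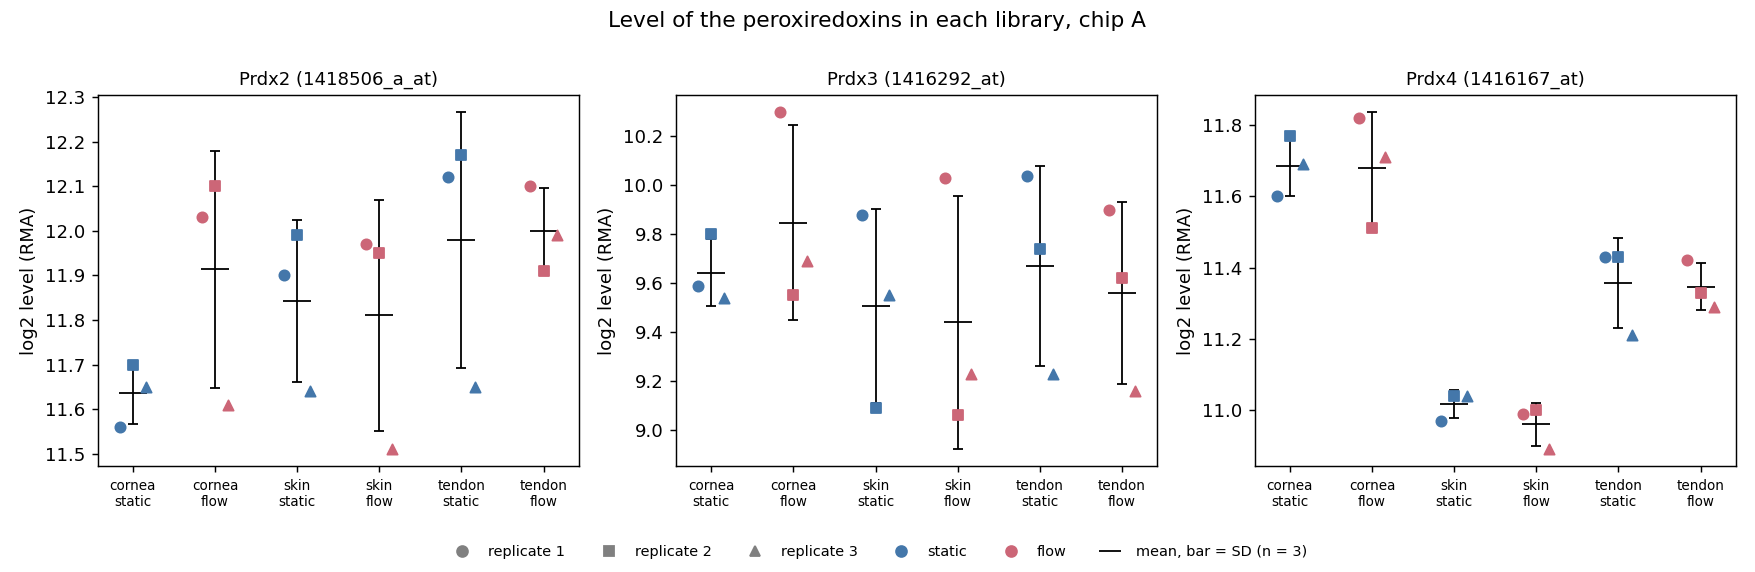
Log2 level (RMA, chip A) of Prdx2, Prdx3 and Prdx4 in each of the 18 libraries, drawn like the plot of Srxn1 and Txnrd1 (points are libraries, bars group means and SDs, n = 3). Prdx4 is highest in cornea (11.51 to 11.82), lower in tendon (11.21 to 11.43) and lowest in skin (10.89 to 11.04) in both states. The replicate 1 libraries of hybridisation batch 1 are the highest Prdx3 values.

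Prdx4, the peroxiredoxin of the endoplasmic reticulum, differed between tissues and hardly with flow. In cornea it measured 11.60, 11.77 and 11.69 static and 11.82, 11.51 and 11.71 under flow. In tendon it was 11.43, 11.43 and 11.21 static and 11.42, 11.33 and 11.29 under flow. In skin it was 10.97, 11.04 and 11.04 static and 10.99, 11.00 and 10.89 under flow. By this representative probe set (1416167_at), the 6 cornea libraries all lay above the 6 tendon libraries, and these above the 6 skin libraries. Counted in any order of the tissues, such a separation was met by 49 genes, 0.269% of all. Static and flow libraries of Prdx4 overlapped in every tissue, with an average flow difference of -0.02 ± 0.06.

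Prdx4 was higher in cornea than in skin by 0.67 ± 0.10 in static culture (1.59-fold, 95% interval 0.46 to 0.88, limma adjusted p = 0.0011) and by 0.72 ± 0.10 under flow (1.65-fold, 0.51 to 0.93, adjusted p = 0.00055). The neighbours in the order did not pass when each state was taken alone. Tendon against skin gave 0.34 ± 0.10 static (adjusted p = 0.16) and 0.39 ± 0.10 under flow (adjusted p = 0.10). Cornea against tendon gave 0.33 ± 0.10 in static culture (adjusted p = 0.12) and 0.33 ± 0.10 under flow (adjusted p = 0.15). When both states were averaged, a contrast added after the values were seen, tendon exceeded skin by 0.36 ± 0.07 (adjusted p = 0.0063) and cornea exceeded tendon by 0.33 ± 0.07 (adjusted p = 0.009), beside 3.63% and 5.79% of genes called. Without tendon static 3 these averages were 0.40 (adjusted p = 0.004) and 0.29 (adjusted p = 0.025), and the static differences of tendon from skin and of cornea from tendon were 0.42 (adjusted p = 0.11) and 0.25 (adjusted p = 0.42). Within hybridisation batch 2 the cornea minus skin difference was 0.65 static and 0.67 under flow.

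The other Prdx4 probe sets gave smaller differences between cornea and skin, and none of them passed. They were 0.32 ± 0.15 static and 0.18 ± 0.15 under flow for 1435731_x_at, 0.42 ± 0.22 and 0.45 ± 0.22 for 1416166_a_at, and 0.27 ± 0.11 and 0.15 ± 0.11 for 1431269_at on chip B. All 6 of these were above 0. Cornea did not lie above tendon in all of these probe sets. The static means of cornea and tendon were 8.57 and 8.47 for 1435731_x_at, 7.28 and 7.37 for 1416166_a_at, and 4.31 and 4.18 for 1431269_at. Under flow they were 8.49 and 8.49, 7.44 and 7.10, and 4.20 and 4.14, in the same order of probe sets. The fibroblast markers Thy1, a cell surface glycoprotein, and Dcn, a matrix proteoglycan, moved the other way, lower in static cornea than in static skin, at -1.60 (adjusted p = 0.00081) and -1.07 (adjusted p = 0.013). Under flow they were again lower in cornea, at -1.27 (adjusted p = 0.0066) and -0.96 (adjusted p = 0.031), and the other 6 measured fibroblast markers did not pass in either state. Of the 6 leukocyte markers, Cd68, a lysosomal protein of macrophages, was lower in cornea than in skin under flow, at -0.58 (adjusted p = 0.031), and was at -0.33 in static culture (adjusted p = 0.32), while the other 5 did not pass in either state. The leukocyte list averaged 6.71 to 6.92 in the static and 6.68 to 7.04 in the flow libraries of cornea, and 7.01 to 7.19 and 6.99 to 7.21 in those of skin. No marker of the other lists passed for cornea against skin. The part of these markers in the Prdx4 difference was not tested. In bulk cultures a difference in the kinds of cells and a difference in RNA per cell cannot be told apart.

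Prdx4 was the only 1 of the 7 measured family members called between tissues. It was called for cornea against skin in both states, beside 2.47% of all genes in static culture and 1.91% under flow. In tendon against skin and cornea against tendon 0 of 7 were called in limma, beside 1.32% and 2.44% of genes in static culture and 1.06% and 1.69% under flow. At an unadjusted p below 0.05, Prdx4 was in all of these comparisons and Txnrd1 in static tendon against skin, beside 6.62% to 13.4% of all genes. For static Srxn1, cornea minus skin was -0.52 ± 0.30 (adjusted p = 0.58) and tendon minus skin -0.44 ± 0.30 (adjusted p = 0.78), with no overlap of the libraries in either comparison. For static Txnrd1, tendon minus skin was -0.86 ± 0.33 (adjusted p = 0.37), and without tendon static 3 it was -0.39. For Txn1, cornea minus skin was 0.18 ± 0.10 static (adjusted p = 0.53) and 0.17 ± 0.10 under flow (adjusted p = 0.73). Libraries did not overlap for 3, 3 and 1 of the 7 genes in static cornea against skin, tendon against skin and cornea against tendon, beside 15.5%, 10.6% and 16.2% of all genes, and for 2, 1 and 1 under flow, beside 12.9%, 13.1% and 16.3%. For Txnip, Prdx2 and Prdx3 the differences between tissues lay between -0.34 and 0.41, and their intervals reached from -0.73 to 1.01. The lowest of these, Prdx2 in static cornea minus tendon, was -0.51 without tendon static 3 (limma adjusted p = 0.21). Prdx3 in static tendon minus skin went from 0.17 to 0.39 without that library.

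**Figure D4:**
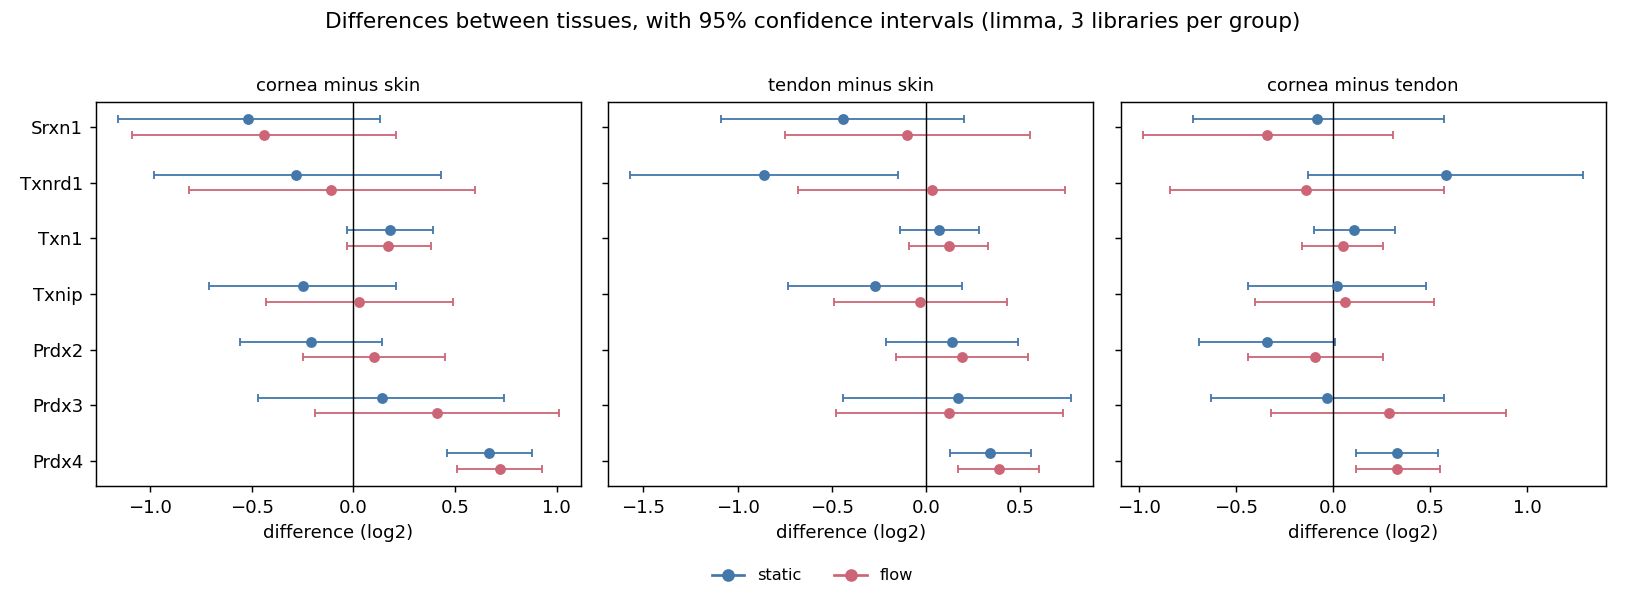
Differences between tissues (log2) for the 7 genes in static culture and under flow, as limma estimates with 95% confidence intervals, 3 libraries per group. The Prdx4 intervals for cornea minus skin (0.46 to 0.88 static, 0.51 to 0.93 under flow) lie right of 0, and those of the other 6 genes in that panel include 0.

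Of 72 other genes of the pathway in 7 lists, all measured, 3 rose and 0 fell on average under flow, beside 0.896% of all genes called. Catalase, Cat, which breaks down hydrogen peroxide without thioredoxin, rose by 0.81 ± 0.17 (limma adjusted p = 0.029), from group means of 9.57 to 9.90 static to 10.33 to 10.68 under flow. The cytosolic superoxide dismutase Sod1, which makes hydrogen peroxide from superoxide, rose by 0.32 ± 0.06 (adjusted p = 0.021). Sqstm1, the autophagy receptor that also binds Keap1, rose by 0.74 ± 0.13 (adjusted p = 0.0093). Another Cat probe set gave 1.11, the others of Sod1 gave 0.32, 0.09, 0.04 and -0.22, and another of Sqstm1 gave 0.06. The lists were drawn up with earlier results of these data known, among them that of Cat, so nothing about the lists is read from the count. Cat missed the threshold in 9 of 28 alternatives (adjusted p up to 0.074) and Sod1 in 3 of 28 (up to 0.058).

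By list, these were 2 of 10 genes of other peroxide and superoxide removal and 1 of 11 regulators of the antioxidant response. None passed for the flow average among 18 other thioredoxin fold and reductase genes, 11 glutaredoxins, methionine sulfoxide reductases and sestrins, 8 alpha-arrestins and glucose-sensing partners of Txnip, 8 genes of selenoprotein synthesis and 6 thioredoxin clients. List medians ran from -0.03 to 0.09, and the median of all genes was -0.01. Transcripts of the regulators themselves, Nfe2l2 at 0.00 ± 0.09 (adjusted p = 0.99) and its inhibitor Keap1 at 0.23 ± 0.12 (adjusted p = 0.51), did not pass. In the single tissues 0 of the 72 passed in limma, with 6 in cornea, 5 in skin and 4 in tendon at an unadjusted p below 0.05, beside 5.39%, 3.01% and 4.36% of all genes, and nothing is read from these counts.

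With culture day as a block, 12 of the 72 passed for the flow average, 8 higher and 4 lower, beside 7% of all genes. The lists were drawn up with earlier results of these data known, and the genes named here were chosen after their values were seen. Nothing about the lists is read from the counts of this fit. Besides Sqstm1, Cat and Sod1, the genes that rose were Bach1 (0.37 ± 0.07), a repressor of antioxidant genes, its partner Mafg (0.35 ± 0.09), the glucose transporter Slc2a1 (0.44 ± 0.08), the sestrin Sesn3 (0.34 ± 0.06) and the selenoprotein factor Secisbp2 (0.34 ± 0.08). Those that fell were the repressor Bach2 (-0.34 ± 0.07), the methionine sulfoxide reductase Msrb1 (-0.42 ± 0.10), the secreted glutathione peroxidase Gpx3 (-0.33 ± 0.08) and Rrm1 (-0.34 ± 0.08), a subunit of ribonucleotide reductase. In tendon 3 of the 72 passed in that fit (Sqstm1, Secisbp2 and Cat, all higher) and in cornea 2 (Sqstm1 and Bach1, both higher), beside 1.21% and 0.33% of all genes. The cornea values of that fit rest on 2 culture-day pairs, since cornea static 2 and cornea flow 1 have no partner.

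Between tissues, the other pathway genes that passed were Nxn, Gpx3 and Rrm2. Nxn, nucleoredoxin, a thioredoxin-fold protein that binds Dishevelled, was lowest in cornea. Its static means were 9.74 ± 0.13 in cornea, 10.52 ± 0.44 in skin and 11.16 ± 0.30 in tendon (SD, n = 3). Cornea minus tendon was -1.42 ± 0.19 static (adjusted p = 0.00036) and -1.30 ± 0.19 under flow (adjusted p = 0.00088). Cornea minus skin was -0.78 ± 0.19 static (adjusted p = 0.04) and -0.86 ± 0.19 under flow (adjusted p = 0.024). Gpx3 was likewise lower in cornea, with static means of 8.51 ± 0.17 against 9.77 ± 0.02 in skin and 9.79 ± 0.41 in tendon. Cornea minus skin and cornea minus tendon were -1.26 and -1.28 in static culture (adjusted p = 0.0031 and 0.0021) and -1.20 and -1.38 under flow (adjusted p = 0.0047 and 0.0014). Rrm2, the other subunit of ribonucleotide reductase, an enzyme that thioredoxin can supply with electrons, was higher in tendon than in skin under flow by 1.62 ± 0.30 (adjusted p = 0.012). The cornea minus skin call of Nxn was lost in 12 of 28 alternatives in static culture and in 5 of 28 under flow, and the Rrm2 call in 3 of 28. The second Nxn probe set gave -0.79 and -1.46 for static cornea against skin and tendon. Thus 2 of 72 passed for cornea against skin, beside 2.47% of all genes in static culture and 1.91% under flow, and 2 of 72 for cornea against tendon, beside 2.44% and 1.69%. For tendon against skin 1 passed under flow, beside 1.06%, and 0 in static culture, beside 1.32%, where 12 were at an unadjusted p below 0.05 beside 9.32% of all genes. The counts past the threshold are near those shares, and nothing particular to the lists is read from them.

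The genes whose levels most resembled those of Srxn1 over the 18 libraries, by Pearson r over all genes tested, were Procr (0.970), Taldo1 (0.967), Blvrb (0.951), Layn (0.951) and Slc48a1 (0.946). After the mean of each group was taken away, the nearest were Layn (0.917), Timd4 (0.911), Taldo1 (0.877), Cbr3 (0.874) and Blvrb (0.860), so Layn, Taldo1 and Blvrb were near by both measures. The flow averages of Procr, Taldo1 and Layn were 1.51 ± 0.16, 0.90 ± 0.12 and 0.62 ± 0.09, and that of Timd4 was 0.00 ± 0.06. Nearest to Txnrd1 were Mapk9 (0.948), Stk38 (0.898), Ints3 (0.898), Me1 (0.889) and Nsmaf (0.878), and after group means were taken away Smad7 (0.923), Vamp3 (0.888), Ube2d1 (0.881), Ahcyl1 (0.876) and Lasp1 (0.868), with no gene in both sets. Without tendon static 3 the values for these Txnrd1 neighbours ran from 0.784 to 0.910 over the other libraries and from 0.747 to 0.831 after group means were taken away. Nearest to Txnip were Tmem198b (0.813), Kcnf1 (0.808), Siglecg (0.797), Adam19 (0.786) and Gypc (0.785), and within groups Tuft1 (0.931), Smad6 (0.893), Actr5 (0.887), Dmap1 (0.876) and Selenoo (0.870). The libraries share arrays, hybridisation batches and culture days, and these likenesses are a description.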

How the data were processed

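Transcript levels were measured in 18 libraries on the Affymetrix MOE430 array pair. The deposited tables, 1 per chip, hold log2 values made with RMA, per the submitters' processing notes. Its version and probe set definitions were not given in the sources used here. RMA normalises by quantiles, so differences are relative to the bulk of genes. Probe sets with 1 symbol in the platform annotation were used, and 1 represented each gene: those without a name in _x_at first, then chip A before chip B, then the highest mean. Only _x_at was taken as a mark of cross-hybridisation, so names in _s_at, like that of the Srxn1 representative, were not set back. All probe sets other than controls entered a limma fit (3.58.1, in R 4.3.3), each chip apart, with the 6 groups and no covariates (12 residual degrees of freedom), and p-values were adjusted over 18193 genes by the Benjamini-Hochberg method at a threshold of 0.05. The number of arrays limits the precision of every value. The fit was run on simulated libraries drawn independently of each other, which does not test it where libraries share a culture day or batch. Culture-day pairs were taken from the scan records, by recorded day in hybridisation batch 2 and by batch alone in hybridisation batch 1. Their libraries' deviations from the group means correlated at 0.38 to 0.76 over genes. Those of the other 19 static and flow pairs of a tissue correlated at -0.61 to 0.33. Deviations from a group mean cancel within the group, so high values for some pairs lower those of the others. The contrast is thus partly built in and is no test of the pairing. Same replicate numbers mark a culture-day pair in skin and tendon and in 1 of the cornea pairs. The highest correlation between 2 libraries over genes was 0.9957, and all were kept.

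The members and lists were chosen with earlier results of these data known. Named genes are all measured members, up to 4 called genes per pathway list and comparison, and the 5 nearest genes to Srxn1, Txnrd1 and Txnip by each of 2 measures, clone and predicted names left out. Other genes named from the fit with culture day as a block were chosen after their values were seen. Promoter sequences are from RefSeq (GRCm38.p6). No protein sequences were used. Alternatives were blocks (replicate number, hybridisation batch, culture day), leaving out each library, other representatives, filters and scalings, and fits of only the groups compared.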

Additional observations from a re-analysis of the deposited data

How the results depend on the processing

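Of 62 values and counts, 1730 alternatives were computed, and 0 changed the direction of a called value. Prdx4 stayed higher in cornea than in skin and past the threshold in every alternative, at 0.63 to 0.71 static and 0.65 to 0.81 under flow (highest adjusted p = 0.029 and 0.034), and no other member was called between tissues in any of them. The Prdx4 differences of tendon from skin and of cornea from tendon passed in no alternative in either state alone. Averaged over both states, a separate comparison that adds the libraries of the other state, they passed with each library left out in turn. They also passed with replicate number or hybridisation batch as a block (0.35 to 0.40 and 0.29 to 0.37 in all of these fits). The replicate block left all counts of members unchanged (2 for the flow average, 1 in tendon) and kept 3 other pathway genes for the average. With culture day as a block, fixed and random alike, 1 member was called in cornea, 1 in skin and 2 in tendon. Other pathway genes called were then 2 (random: 1) in cornea, 3 in tendon and 12 (random: 7) on average. The random block was added after the data were seen, and the fixed one gives no contrast between tissues. The 0 members called for cornea became 1 with the representative of highest mean on either chip, without the dimmest genes, with quantile normalization again and with a trend and robust prior. The 0 for skin became 1 without the dimmest genes and with the trend and robust prior. The 2 pathway genes of static cornea against skin became 1 (Nxn lost) with hybridisation batch as a block. The same held with centred arrays and with only the groups compared. The cause of these moves was not tested.

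When each library was left out in turn, the members called ran from 0 to 1 in cornea, in skin and in tendon. In tendon Srxn1 was lost without tendon static 2, tendon static 3, tendon flow 1 or tendon flow 2. Other pathway genes ran from 1 to 4 for the flow average (1, without skin flow 3), 1 to 3 for static cornea against skin, 1 to 2 for cornea against skin under flow, and 0 to 1 for tendon against skin under flow. In these fits Nxn against skin, Cat, Sod1 and Rrm2 missed the threshold in some (highest adjusted p = 0.16, 0.074, 0.058 and 0.081). Sod1 was lost without skin flow 1, skin flow 3 or tendon flow 1, and Rrm2 without skin flow 2, skin flow 3 or tendon flow 2. A member (Srxn1) was gained in cornea without cornea flow 3, skin flow 2, skin flow 3 or tendon flow 1, and in skin without cornea flow 2, cornea flow 3 or skin flow 2. The number of libraries, 3 per group, limits all of these values, and the flow average of Srxn1 moved only from 1.82 to 2.05 when a library was left out.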
